A study of Bos taurus with 12 samples.

Results

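The genes described here code for the contractile apparatus of smooth muscle: ACTA2, ACTG2, MYH11, MYLK, TAGLN, CNN1, CALD1, SMTN, LMOD1 and DES. They were chosen by name, and every probe whose gene name in the scanner files was one of these symbols was taken. That gave 27 probes for the 10 genes, out of 43653 probes that were not controls. All 27 were well above background on at least 3 of the 12 arrays and entered the tests, which ran on 33539 probes. Where a gene had several probes, its values are those of the probe with the highest mean signal.

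Smooth muscle shortens when filaments of a muscle-specific myosin pull on filaments of actin. The pull starts when calcium switches on myosin light chain kinase, and proteins that sit along the actin filament set how strongly it answers. In the uterus this machinery fills the myometrium, the muscle coat under the endometrium. It is also found in the walls of arteries and, in part, in myofibroblasts, the contractile fibroblasts of healing tissue.

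The samples were endometrial biopsies of 3 female cows, labelled fertile, after povidone-iodine (an iodine-releasing antiseptic, PVP-I) had been given. The same 3 animals were biopsied on days 0, 2, 7 and 14, taking the left and right uterine horns by turns, and RNA of each sample was hybridised to 1 single-colour Agilent bovine array. There were thus 3 arrays for each day and no untreated cow; whether the several pieces of a biopsy were pooled is not given. The labels give neither the stage of the oestrous cycle nor whether the biopsy of day 0 came before the antiseptic, so antiseptic, time, cycle and repeated biopsy cannot be told apart.

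Signals are given as log2 intensity relative to the 75th percentile of the same array, so that a step of 1 is a doubling; levels of different probes cannot be compared. The share of probes well above background ran from 71.3 to 76%, except on the array of cow 3 on day 2, with 63.2%. Of the markers with a probe, 10 of 10 epithelial and 12 of 12 stromal fibroblast markers were well above background on all 12 arrays. Striated muscle genes such as MYH7 and ACTA1 were too, so detection cannot check the tissue label. For 10 of the 12 arrays the scanner file is linked to another sample than its matching column of the deposited value table, and the table's names were used. Under them each cow has a slide of its own and each day a position on it, so cow and slide, and day and position, cannot be told apart. Under the names of the scanner files the result for these genes was different: limma called 0 of the 10 genes on day 2 or day 7 against day 0 and 1 on day 14 (CNN1, log2 change 2.5, adjusted p = 0.0245). The share of all probes called under those file names is not given here, so whether these counts are particular to the contractile genes cannot be read from them. The median change over the 10 genes was then -0.51, -0.34 and 2.02 on the 3 days, against 1.06, 1.72 and 0.79 under the table's names. Every value below depends on that choice of names.

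Against day 0, the fitted change was above 0 for 9 of the 10 genes on day 2 and for all 10 on days 7 and 14, but it was uneven between the cows and few of the genes passed the test. On day 7, ACTA2, ACTG2, TAGLN and DES passed, with rises between 3.59-fold and 8.78-fold, where 10.3% of all probes were called higher. On day 2 only ACTG2 passed, where 1.63% of all probes were called higher. In cow 3 nearly all of the genes were high from day 2 to day 14, while in cows 1 and 2 most were high on day 7 and lower again on day 14. The changes of single genes from day 0 to day 14 ran from -0.06 to 0.86 in cow 1. In cow 2 they went both ways, from -1.19 to 1.03. On days 2 and 7 MYLK and CALD1 had the smallest changes. The plot of the 10 genes by day shows each animal.

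**Figure D1:**
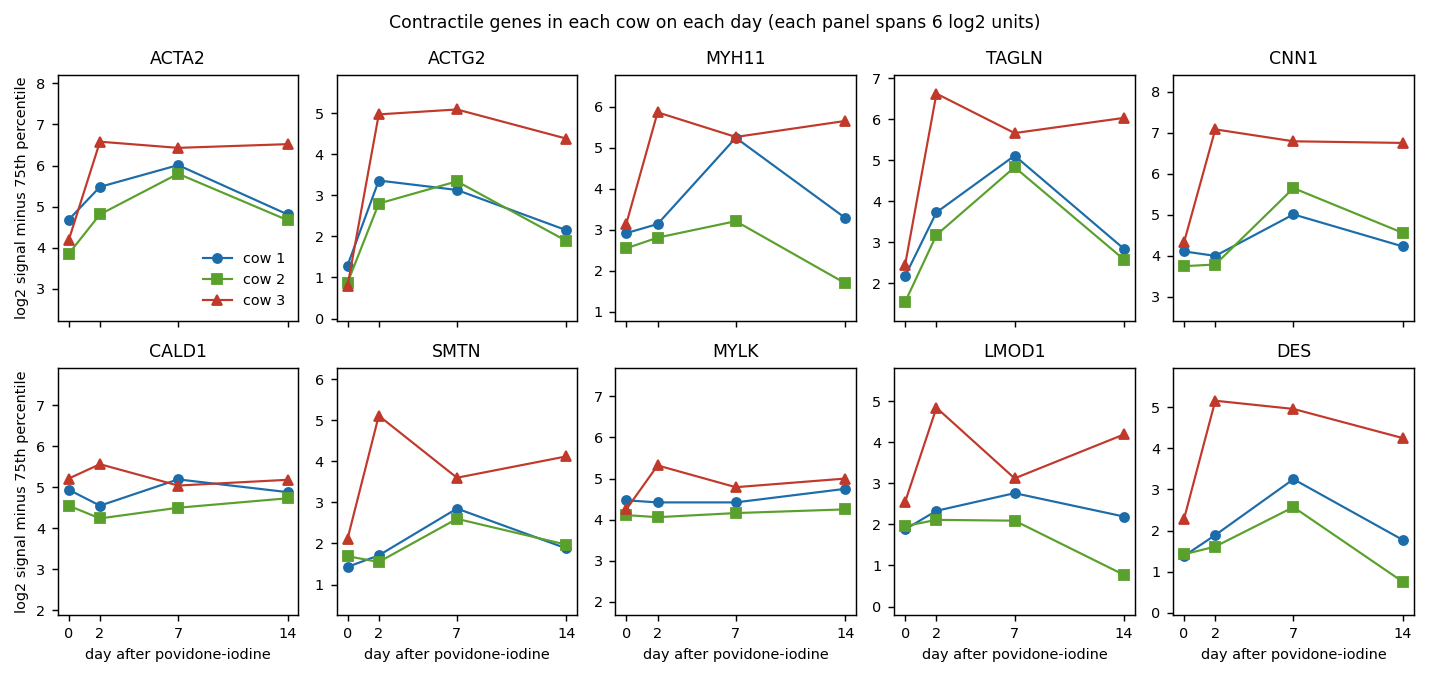
Log2 signal of the brightest probe of each of the 10 genes (y axis, minus the 75th percentile of the array) against the day (x axis), with 1 line per cow and every panel spanning 6 log2 units. The line of cow 3 leaves the others on day 2 and stays above them in most panels, as for CNN1 with 7.08, 6.79 and 6.75 on days 2, 7 and 14.

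The actins form the thin filament. ACTA2, the alpha-actin of vascular smooth muscle and myofibroblasts, had log2 signals of 4.68, 3.85 and 4.18 in cows 1, 2 and 3 on day 0. On day 2 the signals of ACTA2 were 5.48, 4.81 and 6.58, on day 7 they were 6.01, 5.80 and 6.43, and on day 14 they were 4.81, 4.67 and 6.52. Every cow was above all day 0 values on days 2 and 7, but on day 14 the 2 days overlapped, since cow 2 stood just under the day 0 value of cow 1. ACTA2 rose 3.59-fold by day 7 (log2 change 1.84 ± 0.38 SE, adjusted p = 0.0165, limma), in 3 of 3 cows. Its changes on day 2 (1.39, adjusted p = 0.0937) and day 14 (1.1, adjusted p = 0.167) did not pass in limma.

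ACTG2, the gamma-actin typical of visceral smooth muscle such as the gut and uterus, had signals of 1.29, 0.87 and 0.79 on day 0. The signals of ACTG2 were 3.36, 2.80 and 4.97 on day 2, then 3.13, 3.34 and 5.09 on day 7, and lastly 2.15, 1.89 and 4.38 on day 14. No value of a later day fell into the range of day 0. ACTG2 rose 6.63-fold on day 2 (log2 change 2.73 ± 0.50 SE, adjusted p = 0.036) and 7.32-fold on day 7 (2.87 ± 0.50, adjusted p = 0.0101, limma), each in 3 of 3 cows. On day 14 the change was 1.82 (adjusted p = 0.111). It was also the only one of the 10 genes with a difference among the 4 days by limma's moderated F-test (adjusted p = 0.0336), against 7.82% of all probes. In 4 genes that F-test had an unadjusted p under 0.05.

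Another probe of ACTG2 is shown because it reads the gene at a separate place. It spans 1703 bases of the genome, so it crosses an intron.
ACTG2 probe A_73_115488 (Btau_3.1, chr11:11148003-11149705, minus strand): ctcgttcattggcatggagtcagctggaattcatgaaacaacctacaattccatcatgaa
It followed the brightest ACTG2 probe over the 12 arrays, with a correlation of 0.99 (a description over arrays that share cows and slides). The probe A_73_115488 rose 12.1-fold on day 7 (adjusted p = 0.0242, limma). The brightest probe of ACTC1, the actin of heart muscle, had a day 7 change of -0.76 ± 1.74 SE, with -5.61, -2.06 and 5.40 in the 3 cows.

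MYH11, the smooth muscle myosin heavy chain and the most specific marker of differentiated smooth muscle, had signals of 2.92, 2.55 and 3.15 on day 0. The signals of MYH11 were 3.14, 2.81 and 5.86 on day 2, then 5.24, 3.21 and 5.26 on day 7, and lastly 3.29, 1.70 and 5.65 on day 14. Cow 3 alone was high on days 2 and 14, and cows 1 and 3 were high on day 7. Only on day 7 did the values lie wholly above those of day 0, and the change of 1.70 ± 0.63 SE did not pass (adjusted p = 0.0957, limma). On day 14 cow 2 had a change of -0.85 from its own day 0 level. Of the other 3 MYH11 probes, all correlating at 0.97 or more with the brightest, 0 passed. One of them, A_73_P162812, was not well above background on any array of day 0. On days 2, 7 and 14 it was above background on 1, 2 and 2 arrays. Its day 0 signals were -7.43, -8.7 and -8.59 in cows 1, 2 and 3. They were -6.77, -8.08 and -2.2 on day 2, then -3.86, -7.09 and -3.62 on day 7, and lastly -6.3, -8.93 and -3.08 on day 14. Days 2 and 14 overlapped day 0. This probe entered the tests only through arrays of later days, so no fold is given.

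MYLK, the kinase that phosphorylates the myosin light chain and so starts contraction, had signals of 4.47, 4.11 and 4.25 on day 0. The signals of MYLK were 4.42, 4.06 and 5.32 on day 2, then 4.42, 4.16 and 4.79 on day 7, and lastly 4.75, 4.25 and 5.0 on day 14. In cows 1 and 2 the kinase probe stayed within 0.28 of its day 0 level on every day, while in cow 3 it stood 1.08, 0.55 and 0.76 higher. Its fitted changes of 0.32, 0.18 and 0.39 (each ± 0.22 SE) did not pass in limma, with adjusted p of 0.443, 0.606 and 0.355. The gene's other probe shares 53 of its 60 bases and is no independent measure.

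TAGLN (transgelin, SM22), an actin-binding protein made early in smooth muscle differentiation, moved over the widest range of the 10 genes, 5.08 log2 units over the arrays. Its signals were 2.18, 1.55 and 2.46 on day 0. They were 3.73, 3.18 and 6.62 on day 2, then 5.11, 4.83 and 5.66 on day 7, and lastly 2.84, 2.58 and 6.03 on day 14. No later day overlapped day 0. The 3 cows were close together on day 7 but not on days 2 and 14, when cow 3 was far above the others. TAGLN rose 8.78-fold by day 7 (log2 change 3.13 ± 0.62 SE, adjusted p = 0.0143, limma), by 2.93, 3.28 and 3.19 in the cows. On day 2 its change of 2.45 ± 0.62 missed the threshold (adjusted p = 0.0786), and on day 14 it was 1.75 (adjusted p = 0.173). Its other probe, A_73_P291026, crosses an intron (a 403-base span on chr15:26325607-26326009 of Btau_3.1) and also passed on day 7, with a log2 change of 3.32 (adjusted p = 0.0169, limma).

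CNN1 (calponin), which binds the thin filament and damps the activity of myosin, had signals of 4.11, 3.75 and 4.33 on day 0. The signals of CNN1 were 4.00, 3.79 and 7.08 on day 2, then 5.01, 5.65 and 6.79 on day 7, and lastly 4.23, 4.56 and 6.75 on day 14. On day 2 cows 1 and 2 were unmoved (-0.12 and 0.04) and cow 3 was 2.75 higher. All cows were above day 0 on day 7, where the change of 1.75 ± 0.52 SE lay just outside the threshold (adjusted p = 0.0502, limma). On day 14 it was 1.12 (adjusted p = 0.267).

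CALD1 (caldesmon), a brake on the thin filament that other cell types make in a shorter form, had signals of 4.94, 4.55 and 5.21 on day 0. The signals of CALD1 were 4.55, 4.24 and 5.56 on day 2, then 5.19, 4.50 and 5.04 on day 7, and lastly 4.88, 4.73 and 5.18 on day 14. All later days overlapped day 0, and the fitted changes were -0.12, 0.01 and 0.03 (each ± 0.22 SE; adjusted p = 0.804, 0.983 and 0.954, limma). The other 2 CALD1 probes disagreed with this probe, at correlations of 0.78 and 0.67. The probe A_73_P041261 read 2.26 in cow 3 on day 2 and 2.52 in cow 1 on day 7, against 0.57 to 0.94 on day 0. The probe A_73_P371341 had a day 7 change of 1.2 ± 0.65 SE (adjusted p = 0.221), and neither passed on any day. The brightest probe and A_73_P041261 are printed because they show that the gene is read at separate places. The first maps to a 58-base stretch and the second to a span of 4618 bases that includes an intron. Which forms of the transcript hold each stretch was not tested.
CALD1 probe A_73_P103601 (Btau_3.1, chr4:102348571-102348628, plus strand): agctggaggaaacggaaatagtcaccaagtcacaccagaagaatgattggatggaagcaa
CALD1 probe A_73_P041261 (Btau_3.1, chr4:102356763-102361380, plus strand): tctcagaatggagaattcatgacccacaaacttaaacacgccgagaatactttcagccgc

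SMTN (smoothelin), a cytoskeletal protein of contractile smooth muscle cells, had signals of 1.43, 1.69 and 2.11 on day 0. The signals of SMTN were 1.71, 1.55 and 5.11 on day 2, then 2.85, 2.60 and 3.60 on day 7, and lastly 1.88, 1.97 and 4.12 on day 14. Its day 7 values lay above all of day 0, while on days 2 and 14 only cow 3 stood clear of the day 0 range. The changes of 1.05, 1.27 and 0.91 (each ± 0.56 SE) had adjusted p of 0.323, 0.143 and 0.383 in limma. One of the other 3 SMTN probes, A_73_P254421, was well above background on only 3 arrays.

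LMOD1 (leiomodin), which starts new actin filaments in smooth muscle, had signals of 1.88, 1.96 and 2.55 on day 0. The signals of LMOD1 were 2.33, 2.11 and 4.84 on day 2, then 2.76, 2.09 and 3.12 on day 7, and lastly 2.19, 0.77 and 4.19 on day 14. By this probe each later day overlapped day 0. Cow 3 was high on days 2 and 14, and cow 2 had its lowest LMOD1 signal, a change of -1.19, on day 14. The changes of 0.96, 0.53 and 0.25 (each ± 0.53 SE) had adjusted p of 0.337, 0.515 and 0.813 in limma. The other LMOD1 probe, A_73_112091, correlated at 0.94 with the brightest. Its values lay wholly above day 0 on days 2 and 7 and overlapped it on day 14. Its changes on days 2 and 7 were 1.4 and 1.01, which did not pass (adjusted p = 0.264 and 0.303, limma).

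DES (desmin), the intermediate filament that ties contractile units together in muscle, had signals of 1.38, 1.42 and 2.28 on day 0. The signals of DES were 1.89, 1.61 and 5.16 on day 2, then 3.25, 2.57 and 4.96 on day 7, and lastly 1.77, 0.75 and 4.25 on day 14. Cow 3 was far above the others on each day after day 0, and only day 7 did not overlap day 0. DES rose 3.72-fold by day 7 (log2 change 1.89 ± 0.49 SE, adjusted p = 0.0337, limma), by 1.86, 1.14 and 2.68 in the cows. On day 2 (1.19, adjusted p = 0.218) and day 14 (0.56, adjusted p = 0.542) it did not pass. The probes A_73_105976 and A_73_P100026 followed it, with correlations of 0.98 and 0.95, and had larger day 7 changes of 2.72 and 3.00, but with adjusted p of 0.0593 and 0.0774.

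A probe named for DES did something else. The probe A_73_P323881 is listed in the files for DES, VIM (vimentin, the intermediate filament of fibroblasts and most other mesenchymal cells) and PRPH. It is set here against a probe of VIM, with capitals at the 2 mismatches within the 46 bases that align.
DES probe A_73_P323881 (Btau_3.1, chr2:111753764-111753823, plus strand): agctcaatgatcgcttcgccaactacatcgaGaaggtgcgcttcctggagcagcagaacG
VIM probe A_73_P100011: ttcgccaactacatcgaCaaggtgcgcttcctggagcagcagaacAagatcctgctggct
Of the 46 aligned bases 44 are identical. Over the 12 arrays A_73_P323881 correlated at 1.00 with this VIM probe and at 0.37 with the brightest DES probe. On day 14 it still read 3.02 and 3.17 in cows 1 and 2, against 1.86 and 1.5 on day 0, whereas the brightest DES probe read 1.77 and 0.75 there, against 1.38 and 1.42. It passed on day 2 (log2 change 1.71, adjusted p = 0.039) and day 7 (1.35, adjusted p = 0.0271, limma). The VIM probe did too, with changes of 1.64 and 1.27. Whether VIM transcripts bind the DES probe was not tested.
For comparison, the DES probe A_73_P100026, which crosses an intron (179-base span) and moved with the brightest DES probe, has other letters.
DES probe A_73_P100026 (Btau_3.1, chr2:111755214-111755392, plus strand): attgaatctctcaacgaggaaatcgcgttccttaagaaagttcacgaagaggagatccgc

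**Figure D2:**
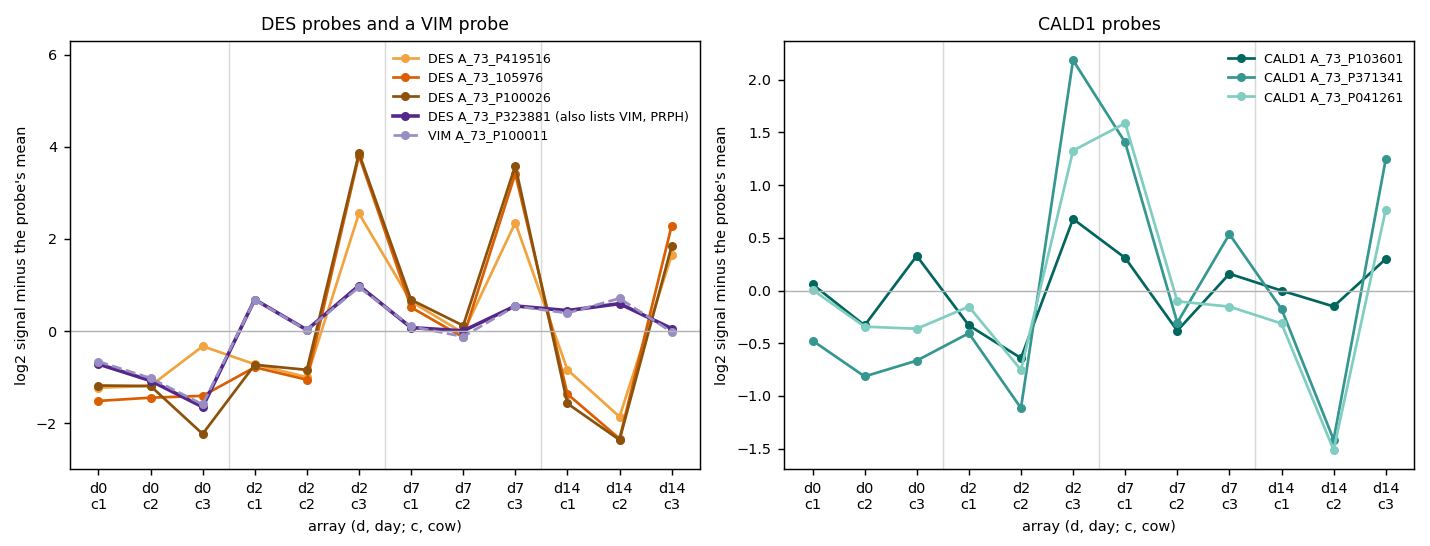
Log2 signal minus the probe's own mean (y axis) on each of the 12 arrays (x axis), with a line per probe, for the 4 DES probes and a VIM probe (left) and the 3 CALD1 probes (right). The DES probe that also lists VIM runs along the VIM probe (correlation 1.00), while the other DES probes peak in cow 3, and the brightest CALD1 probe moves less than the other CALD1 probes.

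Counted over the genes, day 7 held most of the calls. Against day 0, 1 of 10 genes was called higher on day 2, 4 on day 7 and 0 on day 14, and 0 were called lower on any of these days. Among all probes tested 2.52%, 18.2% and 0.116% were called in either direction on the 3 days. The shares called higher were 1.63%, 10.3% and 0.0596%, and those called lower 0.894%, 7.91% and 0.0567%. By probe, 2, 8 and 0 of 27 were called. The counts of days 2 and 7 each include the DES probe A_73_P323881, which moved with a VIM probe. At an unadjusted p under 0.05 there were 4, 6 and 3 genes. The median change of the 10 genes was 1.06, 1.72 and 0.79 on days 2, 7 and 14, beside 0.00, 0.04 and 0.05 over all probes. These comparisons share the arrays of day 0, so they are set side by side and are not separate evidence.

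The values of 3 genes on day 2 (ACTA2, ACTG2, TAGLN), 7 on day 7 (also MYH11, CNN1, SMTN and DES) and 2 on day 14 (ACTG2, TAGLN) lay wholly above those of day 0. Of all probes 12.6%, 20.7% and 14.2% did so. A change above 0 in 3 of 3 cows was seen for 6, 8 and 6 genes, against 27.5%, 28.4% and 23.7% of all probes. By their brightest probes, MYLK and CALD1 were the genes without a change above 0 in every cow on day 7. Their other probes were above 0 in every cow. The other MYLK probe changed by 0.17, 0.17 and 0.67 in cows 1, 2 and 3. The CALD1 probe A_73_P371341 changed by 1.89, 0.51 and 1.21, and A_73_P041261 by 1.58, 0.24 and 0.21.

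Between the later days 0 of 10 genes were called in limma. On day 7 against day 2, where 0.486% of all probes were called, 0 genes had an unadjusted p under 0.05, and the median change was 0.34. On day 14 against day 7, where 0.146% of probes were called, 1 gene did (DES, -1.33 ± 0.49 SE, adjusted p = 0.215). For day 14 against day 2, where 0% of probes were called, 0 genes did. The cows went different ways here. From day 7 to day 14 the median of the genes changed by -0.97 in cow 1, -1.22 in cow 2 and 0.18 in cow 3. For TAGLN these changes were -2.27, -2.25 and 0.37.

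The unevenness between the animals was large for these genes. The median change over the 10 genes on day 2 was 0.36 in cow 1, 0.17 in cow 2 and 2.73 in cow 3. On day 7 it was 1.38, 1.02 and 2.18, and on day 14 it was 0.34, 0.23 and 2.18. Cow 3 had the largest change of the 3 cows in 10 of 10 genes on day 2, 6 on day 7 and 9 on day 14. The median spread between cows (SD) of the genes was 0.34 on day 0, 1.60 on day 2, 0.52 on day 7 and 1.37 on day 14, beside 0.28, 0.33, 0.29 and 0.30 over all probes. The cows lay closest on days 0 and 7 and furthest apart on days 2 and 14. With 1 array for each cow and day, a difference between cows in the response cannot be tested.

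**Figure D3:**
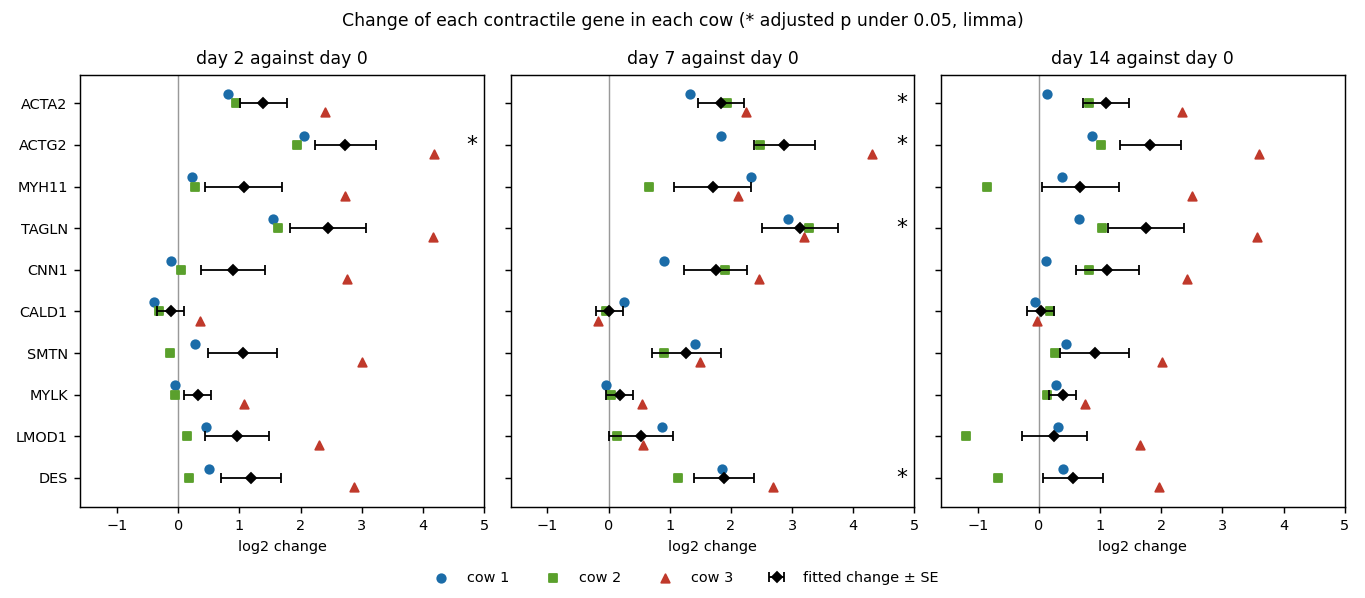
Log2 change of each gene against day 0 on days 2, 7 and 14 (x axis), with a coloured point per cow and a diamond with a bar for the fitted change ± SE (n = 3 cows); asterisks mark adjusted p under 0.05. On day 2 the point of cow 3 lies to the right of both others in 10 of 10 genes, and on day 7 the cows lie closer, as for TAGLN (2.93, 3.28 and 3.19).

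The array of cow 3 on day 2 held the highest signal of 9 of the 10 genes (ACTG2 was highest in cow 3 on day 7), and 9.32% of all probes were highest there. This is the array with the smallest share of probes above background. Its mean level of 10 epithelial marker genes was the lowest of all arrays, -1.25 against -0.53 to 0.66 on the others (log2, each gene centred on its own mean), while the contractile genes averaged 1.92. The part of tissue makeup in these values was not tested. In bulk tissue, more cells of a type in a biopsy and more RNA per cell cannot be told apart.

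Without cow 3, more of the genes passed on day 7, 6 of 10: TAGLN (log2 change 3.11), ACTG2 (2.16), ACTA2 (1.64), DES (1.5), CNN1 (1.40) and SMTN (1.16), in limma with adjusted p from 0.0108 to 0.0323. On day 2 ACTG2 (2.00, adjusted p = 0.0377) and TAGLN (1.59, adjusted p = 0.0374) passed, and the median of the genes was 0.27 in place of 1.06. On day 14 the median was 0.28. TAGLN was then also higher on day 7 than on day 2 (1.51, adjusted p = 0.0277) and lower on day 14 than on day 7 (-2.26, adjusted p = 0.0395), and SMTN was higher on day 7 than on day 2 (1.1, adjusted p = 0.0404). The share of all probes called without cow 3 is not given here. Whether these calls are particular to the contractile genes therefore cannot be read from them. Without cow 1, or without cow 2, limma called 0 of the 10 genes in every comparison, and 0 of all probes except for 213 on day 7 against day 0 without cow 2. On day 7, 5 of the genes had an unadjusted p under 0.05 in each of these fits. Leaving out only the day 2 array of cow 3 gave 0 calls on day 2, with ACTG2 at 2.53 (adjusted p = 0.0826).

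The genes went up and down together over the arrays, apart from CALD1 and, less so, MYLK. Each gene was correlated with the mean of the other 9 over the 12 arrays, which share cows, slides and tissue makeup. The values were 0.64 for CALD1, 0.81 for MYLK, 0.87 for ACTG2 and LMOD1, and 0.92 to 0.96 for the other 6. Among pairs, ACTA2 and TAGLN were most alike (0.98), and ACTG2 and CALD1 least (0.33).

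Of 12896 other named genes, MYL9, the regulatory light chain that MYLK phosphorylates, had the profile most like the mean of the 10 (correlation 0.991 over 12 arrays). TPM2 (0.978) and TPM1 (0.968), the tropomyosins that lie along the thin filament, were also among the first 10. Others were ASB2 (0.975), FBXL22 (0.970), LIMS2 (0.969), ACTBL2 (0.969), MARVELD1 (0.961) and KCNK12 (0.956). The lowest correlations were those of SEMA4A (-0.973), ARSL (-0.963) and LSM10 (-0.941). MYL9 had signals of 3.79, 3.66 and 4.09 on day 0. They were 4.45, 4.12 and 6.08 on day 2, then 5.04, 4.77 and 5.52 on day 7, and lastly 4.28, 4.11 and 5.71 on day 14. Cow 3 was highest on each later day. MYL9 rose by 1.26 ± 0.30 SE on day 7 (adjusted p = 0.0263, limma).

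Among 30 other genes of the contractile filaments and their anchors, 10 were called higher and 0 lower on day 7 (median 1.01), where 10.3% of all probes were called higher and 7.91% lower. In the same list, 1 was higher on day 2 (median 0.95) and 0 on day 14 (median 0.59). Among those that passed, the largest day 7 changes were those of ITGA8, an integrin chain of smooth muscle (3.1 ± 0.71 SE, adjusted p = 0.023, limma), TPM2 (1.89), TPM1 (1.88) and CSRP1 (1.73). MYH10, a non-muscle myosin heavy chain, rose by 1.00. TPM2 was the gene called on day 2 (1.78, adjusted p = 0.0492, limma). On day 14, 10 of the 30 had an unadjusted p under 0.05. Without cow 3 the day 7 count was 12. The share of all probes called in that fit is not given here, so this count has no background beside it.

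Of 20 genes that switch the myosin on and off, 2 were higher on day 7, close to the 10.3% of all probes, and 0 on days 2 and 14 (unadjusted p under 0.05 for 4 and 2). These were ILK (1.38) and RHOA (0.62), kinase and GTPase of the path that inhibits myosin phosphatase. Of 19 genes of calcium and potassium handling, 0 were higher and 4 lower on day 7, beside 10.3% and 7.91% of all probes. The large calcium-activated potassium channel KCNMA1 fell by 2.42 (adjusted p = 0.0124, limma), in 3 of 3 cows. KCNJ8 and ABCC9, the pore and the regulatory subunit of a vascular ATP-sensitive channel, fell by 1.22 and 1.19. KCNJ8 was also the gene called lower on day 2 (-1.62). The 4th gene, CASQ2, a calcium-binding protein, was not well above background on day 7. The mean level of this list, like that of the contractile genes, was highest in cow 3 on days 2 and 14 (1.31 and 1.07).

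Among 20 receptors that set uterine tone, 4 were called higher on day 7, and 0 on day 2 or day 14 (unadjusted p under 0.05 for 5 and 3). Of all probes 10.3% were called higher on day 7. OXTR, the oxytocin receptor, had signals of -4.71, -4.11 and -6.09 on day 0 and 3.33, 3.61 and 1.33 on day 7. Its log2 change was 7.73 ± 0.95 SE (adjusted p = 0.00363, limma), with 8.04, 7.72 and 7.42 in the cows. On day 2, when the change of 4.06 did not pass (adjusted p = 0.0658, limma), cow 3 had the largest change of OXTR (6.5, against 3.72 and 1.95). OXTR is made in endometrial epithelium as well as in muscle, and which cells held it was not measured. HTR2B (1.26), ADRA1A (0.89) and NPR3 were the others. NPR3 was well above background on 1 array of day 0 and 2 of day 7, and its values of these days overlapped. Of 11 gap junction and adhesion genes 3 were higher on day 7, beside the same 10.3% of all probes. They were CDH13 (2.00), ITGA1 (1.51) and GJA1 (1.28), the connexin that couples uterine muscle cells. On day 2 CDH13 was higher (1.89) and ITGA9 lower (-0.96).

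Of 19 genes that control the smooth muscle programme, 3 were higher and 1 lower on day 7, beside 10.3% and 7.91% of all probes. SMAD3, which carries TGF-beta signals to the nucleus, rose by 1.70 (adjusted p = 0.00219, limma), PRRX1 by 1.43 and TEAD1 by 1.30, and KLF5 fell by 1.24. SRF, the factor that binds the promoters of most contractile genes, had changes of 1.2, 0.69 and 0.73 on days 2, 7 and 14, none of which passed (adjusted p = 0.167, 0.286 and 0.366, limma). Its coactivator MYOCD was well above background on 2 arrays at most and was not tested.

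Markers of other cell types were counted in the same way. Of all probes 10.3% were called higher and 7.91% lower on day 7, and 1.63% higher on day 2. Of 10 myofibroblast genes, which smooth muscle shares in part, 8 were higher on day 7 (median 1.62), 2 on day 2 (1.5) and 0 on day 14 (1.43; unadjusted p under 0.05 for 7). TNC (4.86), CTHRC1 (3.26), COL12A1 (2.48) and FN1 (2.36) had the largest day 7 changes. In this list the ITGA11 probe was well above background on 7 arrays in all, 3 of them of day 7, and on no array of day 0. ITGA11 thus entered the tests only through later days, and no fold is given for it. The mean level of this list was -1.41 to -0.98 on day 0, -0.19 to 0.38 on day 2, 0.34 to 0.94 on day 7 and 0.05 to 0.87 on day 14, and cow 3 did not lead it on day 14 (0.17, against 0.87 in cow 2). Leukocyte genes had 3 of 12 higher on day 2 and 7 on day 7, with levels of -0.81 to -0.47 on day 0 and -0.61 to 1.14 on day 7, where cow 3 was lowest. Of 10 pericyte markers 2 were higher (CSPG4 1.29, MCAM 0.79) and 2 lower (KCNJ8 and ABCC9) on day 7. Among endothelial markers 2 of 10 were higher on day 7, PECAM1 (1.18) and VWF. The VWF probe was well above background on 4 arrays in all, 2 of them of day 7, and on no array of day 0. It entered the tests only through later days, so no fold is given. Of 12 stromal fibroblast markers 1 was higher on day 7 (FBLN1, 0.95), beside 10.3% of all probes, and of 10 epithelial markers 0 were called (unadjusted p under 0.05 for 2). The part of these cells in the change of the contractile genes was not tested.

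Striated muscle genes bear on DES and the actins, which such muscle makes too. Of 16 on the array 10 were tested, and 1 was called on day 7 (10.3% of all probes were called higher), ACTA1, the skeletal alpha-actin (2.18 ± 0.56 SE, adjusted p = 0.0329, limma). Of the 16, 10 were above background on 9 to 12 arrays (MYH7, MYH3, TNNT1, TNNT3, TNNC1, TNNC2, MB, CKM, ACTA1 and ACTC1), and TNNI2 on 2. MYL1 and MYL2 were above it on 1 array, and MYH1, MYH2 and TTN on 0. The list's mean level was 1.11 in cow 3 on day 2 and 0.95 in cow 3 on day 7, and -0.97 and -0.65 in the other cows on day 7.

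**Figure D4:**
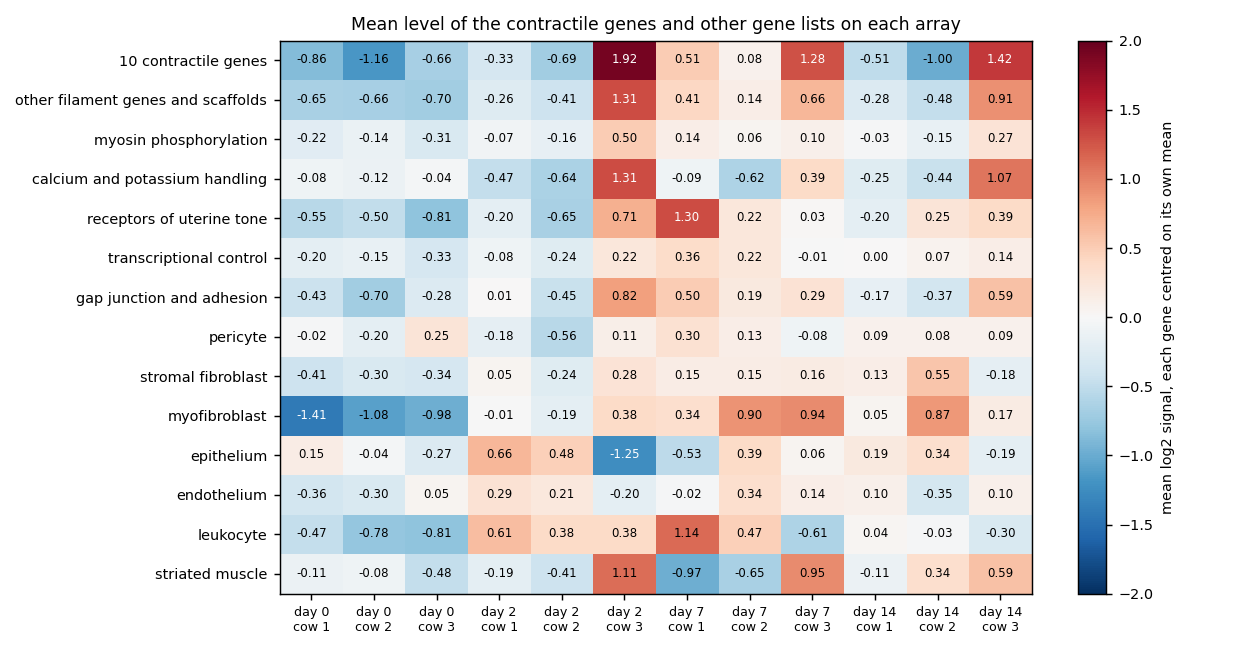
Mean log2 signal of the 10 contractile genes and of 13 other gene lists (rows) on each of the 12 arrays (columns), each gene centred on its own mean over the arrays, with the value printed in each cell and shown by colour. The contractile genes reach 1.92, 1.28 and 1.42 in cow 3 on days 2, 7 and 14, while the myofibroblast list is lowest on day 0 in every cow and the epithelial list is lowest in cow 3 on day 2 (-1.25).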

How the data were processed

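The authors deposited 12 scanner files of intensity values, written by Agilent Feature Extraction (11.5.1.1 per the file headers, 10.5.1.1 per the submitters' processing notes). Per the file headers the intensity was background-subtracted and detrended within each array, not between arrays. The authors' deposited value table is on a log2 scale, centred per probe, by steps not given in the sources used here; it gave the sample names and served as an alternative. Each table column matched 1 scanner file.

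Log2 processed intensity was averaged over spots, and each array's 75th percentile was subtracted. Probes flagged as outliers (31) and control spots were left out, as were probes well above background on fewer than 3 of 12 arrays. The model, fitted with limma 3.58.1 in R 4.3.3, held day and cow, 6 residual degrees of freedom, and Benjamini-Hochberg adjustment over 33539 probes at 0.05. SE is that of the linear model. The fit was checked on simulated data. P-values rest only on the spread left among these 3 cows' samples after day and cow were fitted, moderated by limma over all probes. Precision is limited by the number of arrays.

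Cow is a block because the series' design text gives the same individuals for each day. Residuals around the day means had a mean correlation of 0.285 for the 18 array pairs within a cow (15 above 0.1). For the 36 pairs between cows it was -0.136. Each cow has a slide of its own under the names used, so these values cannot tell cow from slide and do not check the pairing. Subtracting the day means also ties the value between cows to the value within a cow, so their contrast adds no evidence.

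The rule named all 10 contractile genes, in each other list the 4 largest changes past the threshold, OXTR, MYL9, MYOCD, SRF, GJA1 and MYH10, and the 10 most like and 3 least like genes; 1 of the most like genes and 1 ACTG2 probe are not reported here. Members, lists and tests were chosen with earlier results of these data known. Coordinates are of Btau_3.1, the build in the file headers; the exon or UTR of a probe was not annotated here. Probe sequences are those of the scanner files. A RefSeq table of assembly ARS-UCD2.0 was used for gene names only. Alternatives were other sample names, scaling, background correction, filters, probe rule, array weights, the value table, fewer arrays and no block.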

Additional observations from a re-analysis of the deposited data

How the results depend on the processing

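Counts are of the 10 contractile genes called in limma. The shares of all probes called under each setting are not given in this section. Whether a shift in a count is particular to these genes therefore cannot be read from it. Under the sample names of the scanner files they were 0 on day 2, 0 on day 7 and 1 on day 14 against day 0, and 2 on day 14 against day 2, and the directions turned: ACTG2 had a change of -0.65 on day 2, and on day 7 ACTA2 had -0.51, ACTG2 -0.59, TAGLN -0.38 and DES -0.31. With no replicate block (cow left out of the model, so the pairing unused) the counts were 0 on day 2, 2 on day 7 and 0 among the 4 days. With only the 2 days compared they were 0 on day 2 and 2 on day 7. Taking the mean of a gene's probes gave 0 on day 2 and 0 among the 4 days. Normexp with quantile normalization gave 3 among the 4 days, and a filter of 6 of 12 arrays gave 2. Array weights, whose estimation did not fully converge, gave 3 on day 2, 3 on day 7 against day 2, 5 on day 14 against day 2, 5 on day 14 against day 7 and 7 among the 4 days. The cause of these shifts was not tested.

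Leaving out 1 cow or 1 array gave 0 to 2 genes on day 2, 0 to 6 on day 7 and 0 on day 14 against day 0, 0 to 2 on day 7 against day 2, 0 on day 14 against day 2, 0 to 1 on day 14 against day 7 and 0 to 4 among the 4 days. Apart from the scanner files' names, the 5 called changes kept their direction: ACTG2 ranged from 1.95 to 3.17 on day 2 (past the threshold in 8 of 18 settings), and on day 7 ACTA2 from 1.40 to 2.19 (13), ACTG2 from 2.10 to 3.39 (15), TAGLN from 2.54 to 3.69 (13) and DES from 1.25 to 2.39 (9). Quantile scaling, no filter and the authors' value table moved none of the counts by over 1.5 times. With 3 cows on 3 slides, 1 animal or array can decide a call, and dim probes limit what a fold can show.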
